A study of Homo sapiens with 12 samples.

Results

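The genes described here are 3 classical cadherins (CDH1, CDH2 and CDH3), the intermediate filament gene VIM, 5 transcription factors (ZEB1, ZEB2, SNAI1, SNAI2 and TWIST1) and the splicing regulator ESRP1. They were chosen by name, and their rows were taken from the table of gene counts by matching the row ID to a gene symbol. All 10 were found among the 61044 rows, and all 10 were among the 17532 genes that passed a filter on low counts and were tested. The RNA came from SCC-15 cells, an established line grown from a human oral squamous cell carcinoma. One group carried a negative-control short hairpin RNA (NC) and 3 groups each carried a different short hairpin RNA against FMOD, the gene of the extracellular matrix proteoglycan fibromodulin (shRNA1, shRNA2 and shRNA3). Each group has 3 libraries, 12 in all, made from cells harvested after 48 hours in the same serum-containing medium, and the series was designed to find genes whose expression changes on FMOD depletion. How the hairpins were delivered, whether each line is a clone or a pool, and whether libraries of a group came from separate cultures are not given in the sources used here, so p-values measure the spread between these libraries, which may be technical.

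Classical cadherins are transmembrane proteins that hold neighbouring cells together at adherens junctions and bind catenins inside the cell. In the epithelial-mesenchymal transition (EMT), cells of epithelial type lose E-cadherin (the product of CDH1), gain vimentin and often switch to N-cadherin (CDH2). The ZEB, SNAI and TWIST factors repress epithelial genes, several of them through E-box sequences in promoters, and the miR-200 family and miR-205 repress ZEB1 and ZEB2 in turn. In oral squamous carcinoma these genes are known for their part in invasion at the tumour edge, where cells often combine epithelial and mesenchymal features.

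Library totals ranged from 17286934 to 19567192 counts. Levels are given as CPM, counts in a library of 1000000 counts after scaling by the trimmed mean of M values (TMM), and a gene was called where edgeR's quasi-likelihood test gave an adjusted p under 0.05 over all tested genes. FMOD itself had 2 to 3 counts in each NC library and 0 in each of the 9 shRNA libraries, too few to check the labels and too few for a fold change. NC libraries correlated with shRNA libraries at 0.829 to 0.855 across genes (log scale), against 0.904 or more between shRNA groups. In every comparison with NC, the hairpin and any other difference between the NC and shRNA cells cannot be told apart. Libraries 1 and 2 of shRNA3 stood apart from all others on the second principal component (-102 and -104, against 2.94 to 39.6 elsewhere) and had the lowest TMM factors, 0.771 and 0.795. The 8 squamous markers checked (KRT5, KRT14, KRT6A, KRT17, TP63, DSG3, PKP1 and SFN) were all detected, with a summed level of 1869 to 2067 CPM in NC and 1281 to 2190 CPM across the shRNA groups.

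VIM moved furthest of the 10 genes, and CDH1, CDH3 and ESRP1 moved the other way. With each of the 3 hairpins, VIM, ZEB1 and ZEB2 rose and CDH1, CDH2, CDH3 and ESRP1 fell against NC. In these 7 genes the 9 shRNA libraries all lay on one side of the 3 NC libraries. SNAI1, SNAI2 and TWIST1 did not share this pattern. Of the 10 genes, 8 were called with shRNA1 (4 higher, 4 lower), 7 with shRNA2 (3 higher, 4 lower) and 10 with shRNA3 (6 higher, 4 lower). The background was high: 57.4% of all tested genes were called with shRNA1 (26.8% higher, 30.6% lower), 53% with shRNA2 (24.6% higher, 28.4% lower) and 53.9% with shRNA3 (26.4% higher, 27.6% lower). For the mean of the 3 hairpins 9 of the 10 genes were called, all but TWIST1 (5 higher, 4 lower), against 60% of all genes (27.9% higher, 32.2% lower). Across all tested genes, 35.7% were called in the same direction with all 3 hairpins (16% higher, 19.7% lower). In 44.8% all 9 shRNA libraries lay on the same side of the 3 NC libraries. The 3 comparisons share the same NC libraries. In bulk RNA, fewer cells with a transcript and less of it per cell cannot be told apart.

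**Figure D1:**
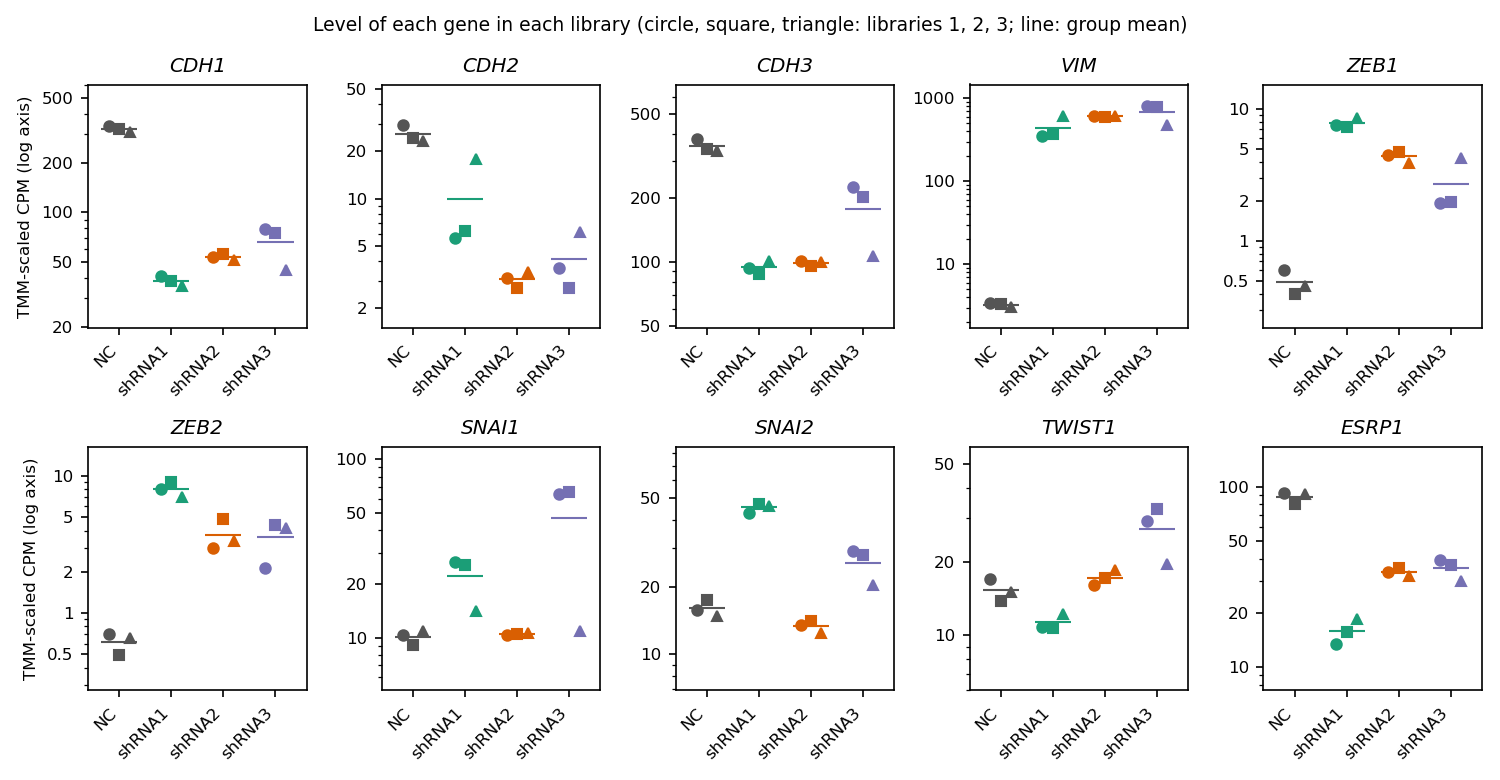
TMM-scaled CPM (log axis) of the 10 genes in each of the 12 libraries; symbols mark libraries 1, 2 and 3 of a group and lines mark group means. VIM, ZEB1 and ZEB2 lie above NC in all 9 shRNA libraries, and CDH1, CDH2, CDH3 and ESRP1 lie below. For SNAI1, SNAI2 and TWIST1 the 9 shRNA libraries do not all lie on the same side of NC.

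CDH1 (ENSG00000039068, chr16:68737225-68835548, plus strand, GRCh38) encodes E-cadherin, the main cadherin of epithelial adherens junctions. Its level was 336, 322 and 310 CPM in the NC libraries, 41.1, 38.2 and 35.4 with shRNA1, 53.2, 55.9 and 51.2 with shRNA2, and 79.4, 74.5 and 44.4 with shRNA3. Every shRNA library was below every NC library. CDH1 was 8.44-fold lower with shRNA1 (log2 fold change -3.08 ± 0.20 SE, adjusted p = 5.36e-07). It was 6.04-fold lower with shRNA2 (-2.59 ± 0.20, adjusted p = 1.46e-06) and 4.89-fold lower with shRNA3 (-2.29 ± 0.19, adjusted p = 3.42e-06). The order of the group means was NC, shRNA3, shRNA2, shRNA1. Only the step from shRNA1 to shRNA3 was called among the hairpin pairs (log2 difference -0.79, adjusted p = 0.0132), and it shrank to -0.23 (adjusted p = 0.263) without libraries 1 and 2 of shRNA3.

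CDH3 (ENSG00000062038, chr16:68636189-68722616, plus strand) encodes P-cadherin, which basal cells of stratified epithelia carry. It was at 381, 341 and 332 CPM in NC, 93.9, 87.5 and 101 with shRNA1, 100.4, 95.1 and 99.5 with shRNA2, and 225, 202 and 107 with shRNA3. The groups did not overlap with NC, and library 3 of shRNA3 lay near the other hairpins while libraries 1 and 2 lay between them and NC. CDH3 was 3.73-fold lower with shRNA1 (log2 fold change -1.90 ± 0.23, adjusted p = 3.59e-05), 3.57-fold lower with shRNA2 (-1.84 ± 0.23, adjusted p = 4.67e-05) and 1.98-fold lower with shRNA3 (-0.98 ± 0.22, adjusted p = 0.00302). Without libraries 1 and 2 of shRNA3 the last value was -1.69. The call with shRNA3 was lost where only the libraries of NC and shRNA3 were fitted (adjusted p = 0.0509). CDH3 was lower with shRNA1 and shRNA2 than with shRNA3 (log2 differences -0.92 and -0.85, adjusted p = 0.0141 and 0.0434), and these differences were -0.20 and -0.13 without those 2 libraries. The calls were lost in 6 and 15 of 20 other settings.

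CDH2 (ENSG00000170558, chr18:27950966-28177446, minus strand) encodes N-cadherin, the cadherin of nerve, muscle and mesenchymal cells. Its NC level was low beside that of CDH1, at 29.6, 24.3 and 23.4 CPM. With shRNA1 it was at 5.62, 6.20 and 18.0 CPM, with shRNA2 at 3.10, 2.71 and 3.43 CPM, and with shRNA3 at 3.63, 2.70 and 6.11 CPM. All 9 shRNA libraries were below NC, so the loss of CDH1 RNA came with a loss, not a gain, of CDH2 RNA. CDH2 was 2.60-fold lower with shRNA1 (log2 fold change -1.38 ± 0.43, adjusted p = 0.0164), 8.36-fold lower with shRNA2 (-3.06 ± 0.46, adjusted p = 0.000199) and 6.17-fold lower with shRNA3 (-2.62 ± 0.45, adjusted p = 0.000509). Library 3 of shRNA1 held 3.04 times the mean of the other shRNA1 libraries. The call with shRNA1 was lost without library 1 of NC, library 1 of shRNA1 or library 2 of shRNA1 (adjusted p = 0.0542, 0.0674 and 0.0721). CDH2 was higher with shRNA1 than with shRNA2 (log2 difference 1.68, adjusted p = 0.0318), and without library 3 of shRNA1 this was 0.94 (adjusted p = 0.0745). Leaving out 1 library at a time lost this call in 8 settings, each of the NC and shRNA2 libraries among them.

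VIM (ENSG00000026025, chr10:17228259-17237593, plus strand) encodes vimentin, the intermediate filament protein of mesenchymal cells. NC libraries held 3.43, 3.30 and 3.04 CPM (60 to 68 counts). The level was 356, 369 and 611 CPM with shRNA1, 618, 601 and 608 with shRNA2, and 818, 784 and 479 with shRNA3. The lowest shRNA library was thus at 356 CPM and the highest NC library at 3.43 CPM. VIM was 136-fold higher with shRNA1 (log2 fold change 7.09 ± 0.31, adjusted p = 5.45e-08), 186-fold higher with shRNA2 (7.54 ± 0.32, adjusted p = 3.64e-08) and 212-fold higher with shRNA3 (7.73 ± 0.32, adjusted p = 3.44e-08). None of the 3 differences between hairpins was called. VIM-AS1, an antisense gene that overlaps VIM, had a mean of 0.267 ± 0.02 CPM (SD, n = 3) in NC, against 1.31 ± 0.29 with shRNA1, 3.08 ± 0.18 with shRNA2 and 1.58 ± 0.17 with shRNA3. Whether the authors' counting used strand is not given in the sources used here, so reads of the pair cannot be told apart.

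Set per kilobase of principal transcript (GENCODE 29), which allows levels of different genes to be compared, CDH3 (71.3 ± 5.35 CPM per kb, SD, n = 3) and CDH1 (66.0 ± 2.60) led the 10 genes in NC and differed by no more than the SD of CDH3. ESRP1 followed at 23.2 ± 1.8, TWIST1 at 9.16 ± 0.96, SNAI2 at 6.63 ± 0.56, SNAI1 at 6.00 ± 0.54 and CDH2 at 5.96 ± 0.77 CPM per kb. VIM was at 1.53 ± 0.09, and ZEB1 and ZEB2 were lowest at 0.0895 ± 0.02 and 0.0649 ± 0.01 CPM per kb. In the shRNA groups VIM led, at 208 ± 67.3, 285 ± 4.05 and 325 ± 87.5 CPM per kb with shRNA1, shRNA2 and shRNA3. CDH3 was next at 19.1 ± 1.39, 19.95 ± 0.58 and 36.1 ± 12.7 CPM per kb, ahead of CDH1 at 7.82 ± 0.59, 10.9 ± 0.48 and 13.5 ± 3.88. SNAI2 with shRNA1 (18.7 ± 0.97) and SNAI1 with shRNA3 (27.7 ± 18.4) lay within the spread of CDH3. These 2, SNAI1 with shRNA1 (13.2 ± 4.11) and TWIST1 with shRNA3 (16.3 ± 4.09) had means above that of CDH1 in the same group.

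Ratios within a library do not depend on scaling. The log2 ratio of CDH1 to VIM counts was 6.61 ± 0.03 (SD, n = 3) in NC, or 97.6 CDH1 counts for each VIM count. It was -3.50 ± 0.54, -3.51 ± 0.08 and -3.40 ± 0.03 with shRNA1, shRNA2 and shRNA3, or 11.3, 11.4 and 10.5 VIM counts for each CDH1 count. The group means of this ratio were almost the same with the 3 hairpins, but the shRNA1 libraries were spread, at -3.11, -3.27 and -4.11. The CDH1 and VIM levels behind the ratio also differed between libraries. In shRNA3 both genes were higher in libraries 1 and 2 than in library 3, by 1.73 and 1.67 times. In shRNA1, library 3 held 1.69 times the VIM mean of libraries 1 and 2, and 0.89 times the CDH1 mean. CDH1 fell more than CDH3, with a log2 CDH1 to CDH3 ratio of -0.12 ± 0.05 in NC and -1.30 ± 0.19, -0.88 ± 0.10 and -1.40 ± 0.12 with the hairpins. The CDH1 to CDH2 ratio was 3.65 ± 0.13 in NC, 2.15 ± 1.02 with shRNA1, 4.10 ± 0.23 with shRNA2 and 4.01 ± 1.02 with shRNA3, so the balance of these cadherins moved in no shared direction. The ZEB1 to ESRP1 ratio rose from -7.38 ± 0.20 to -1.01 ± 0.17, -2.94 ± 0.08 and -3.76 ± 0.84. These ratios are descriptions, with no test.

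**Figure D2:**
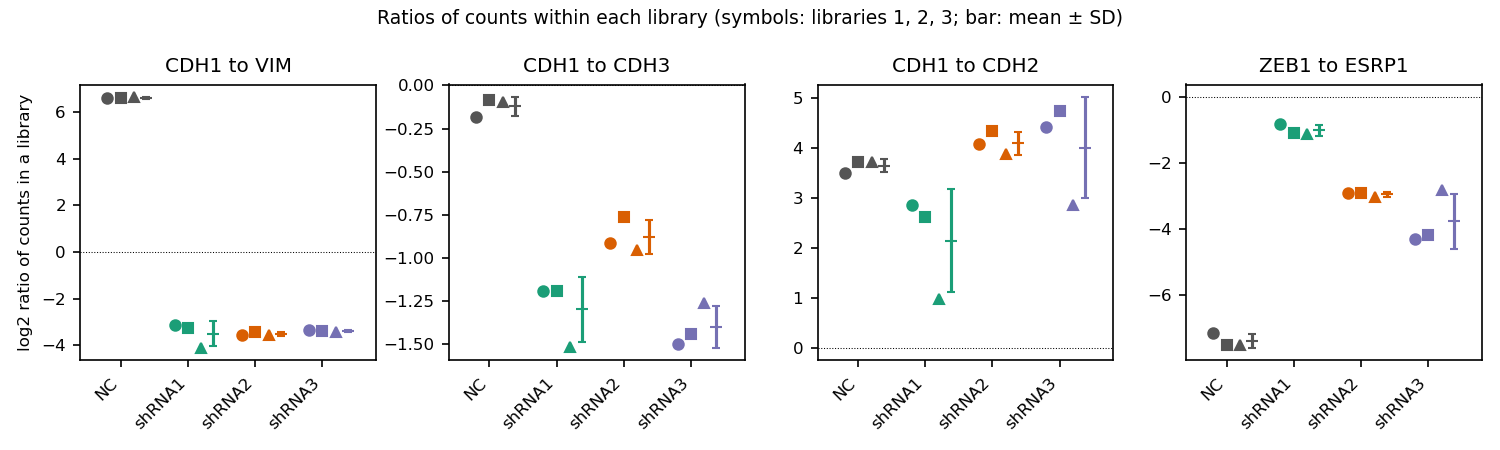
Log2 ratio of counts within each library for 4 gene pairs; symbols mark libraries 1, 2 and 3, and bars show the mean ± SD of a group. The group mean of CDH1 to VIM drops from 6.61 in NC to between -3.51 and -3.40 with the hairpins, while CDH1 to CDH2 shows no common direction.

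ZEB1 and ZEB2 encode zinc finger homeobox repressors that bind E-boxes of the form CACCTG or its reverse complement CAGGTG, among them those of CDH1. Both genes have several seed matches for the miR-200 family in their 3' untranslated regions, and reciprocal repression between them is a well known circuit of EMT. The mature sequences below are from RefSeq (GRCh38.p14), with the seed (bases 2 to 8) in capitals; they fall into 3 seed groups, 1 for miR-205, 1 for miR-200b, miR-200c and miR-429, and 1 for miR-200a and miR-141.
hsa-miR-205-5p: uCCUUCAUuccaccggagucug
hsa-miR-200b-3p: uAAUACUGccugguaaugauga
hsa-miR-200c-3p: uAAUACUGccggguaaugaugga
hsa-miR-429: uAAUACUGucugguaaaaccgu
hsa-miR-200a-3p: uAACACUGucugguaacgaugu
hsa-miR-141-3p: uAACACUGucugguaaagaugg

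The 3' untranslated region of ZEB1 (2549 bases) holds 6 matches to the seed of miR-200b, miR-200c and miR-429, 3 to that of miR-200a and miR-141, and 1 to that of miR-205. In ZEB2 (5370 bases) the numbers are 5, 4 and 0. Among untranslated regions at least as long, cut to the same length, 27.0%, 30.4% and 18.7% hold a match at the ZEB1 length and 48.4%, 51.7% and 35.5% at the ZEB2 length. The lines below show 1 match of each kind with its flank (GRCh38, 5' to 3' on the gene's strand, the bases that pair with the seed in capitals), chosen as the first in each gene.
ZEB1, miR-205, chr10:31528068-31528089, plus strand: atatgtggtaacatATGAAGGa
ZEB1, miR-200b group, chr10:31527619-31527640, plus strand: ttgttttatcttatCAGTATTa
ZEB1, miR-200a group, chr10:31528032-31528053, plus strand: aaaatcatcagaatCAGTGTTt
ZEB2, miR-200b group, chr2:144389052-144389073, minus strand: gcactaccatacatCAGTATTt
ZEB2, miR-200a group, chr2:144389236-144389257, minus strand: gcaaaaattttgtaCAGTGTTa

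Mature miRNAs were not measured in these libraries. Of their host genes, MIR205HG had a mean of 185 ± 24.5 CPM (SD, n = 3) in NC, against 30.7 ± 15.5 with shRNA1, 53.5 ± 1.39 with shRNA2 and 90.1 ± 49.7 with shRNA3. The gene was called lower with shRNA1 (6.03-fold, adjusted p = 0.000481) and shRNA2 (3.46-fold, adjusted p = 0.00457), and its log2 fold change of -1.04 with shRNA3 was not called (adjusted p = 0.0573). MIR200CHG, host of miR-200c and miR-141, had group means between 0.547 and 0.793 CPM and was not called with any hairpin. No host transcript of miR-200b, miR-200a and miR-429, which lie near each other on chromosome 1, was examined.

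ZEB1 (ENSG00000148516, chr10:31318495-31529814, plus strand) had 12, 8 and 9 counts in the NC libraries, or 0.606, 0.394 and 0.457 CPM. It was at 7.56, 7.27 and 8.52 CPM with shRNA1, 4.51, 4.74 and 3.88 with shRNA2, and 1.93, 1.97 and 4.27 with shRNA3. Every shRNA library was above NC, and the order of the means was shRNA1, shRNA2, shRNA3, NC. ZEB1 was 15.8-fold higher with shRNA1 (log2 fold change 3.98 ± 0.37, adjusted p = 6.28e-06), 8.90-fold with shRNA2 (3.15 ± 0.37, adjusted p = 3.06e-05) and 5.60-fold with shRNA3 (2.49 ± 0.37, adjusted p = 0.000179). It was higher with shRNA1 than with shRNA3 (log2 difference 1.50, adjusted p = 0.00987), which was not called without libraries 1 and 2 of shRNA3 (0.85, adjusted p = 0.0877). The antisense gene ZEB1-AS1 exceeded ZEB1 in NC, at 4.99 ± 1.05 CPM (SD, n = 3), and was at 1.90 ± 1.31, 3.94 ± 0.58 and 3.39 ± 0.81 CPM with the hairpins, called lower only with shRNA1 (adjusted p = 0.0148). As with VIM, reads of ZEB1 and its antisense gene cannot be told apart without knowing the use of strand, which matters most at the low ZEB1 counts of NC.

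ZEB2 (ENSG00000169554, chr2:144364364-144524583, minus strand) had 14, 10 and 13 counts in NC, or 0.707, 0.492 and 0.660 CPM. The values were 8.01, 9.06 and 7.07 CPM with shRNA1, 2.99, 4.85 and 3.38 with shRNA2, and 2.15, 4.37 and 4.17 with shRNA3. The groups did not overlap with NC. ZEB2 was 12.9-fold higher with shRNA1 (log2 fold change 3.69 ± 0.36, adjusted p = 7.88e-06), 5.98-fold with shRNA2 (2.58 ± 0.35, adjusted p = 9.38e-05) and 5.72-fold with shRNA3 (2.52 ± 0.35, adjusted p = 0.000118). It was higher with shRNA1 than with shRNA2 (log2 difference 1.10, adjusted p = 0.0415) and shRNA3 (1.17, adjusted p = 0.0202). The first call was lost in 11 of 20 other settings, among them library totals (adjusted p = 0.0612), the replicate block (0.0616) and leaving out any 1 NC or shRNA2 library. The second was lost in 5, among them without libraries 1 and 2 of shRNA3 (0.93, adjusted p = 0.102). ZEB2-AS1 had at most 4 counts in any library.

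Promoter windows of VIM, ZEB1, ZEB2 and CDH2 were taken from RefSeq, as the 250 bases before each annotated start. No windows of the other genes described here were searched. The E-box form CACCTG or CAGGTG, each the reverse complement of the other, was found in 17.5% of 35116 such windows. It was in 2 of the 7 ZEB1 windows, and in none of the VIM, ZEB2 and CDH2 windows. The general E-box form CANNTG (N, any base) was found in 61.8% of all windows. The ZEB2 window and 1 CDH2 window each had 1 match, the VIM window had 0 and the ZEB1 windows had 0 to 2. The VIM window and the ZEB1 window with 2 CACCTG or CAGGTG matches are shown because these genes rose together. Such matches are in capitals. In the ZEB1 window the matches begin 242 and 85 bases before the start. A match describes the letters only.
ZEB1, chr10:31318966-31319215, plus strand, GRCh38.p14: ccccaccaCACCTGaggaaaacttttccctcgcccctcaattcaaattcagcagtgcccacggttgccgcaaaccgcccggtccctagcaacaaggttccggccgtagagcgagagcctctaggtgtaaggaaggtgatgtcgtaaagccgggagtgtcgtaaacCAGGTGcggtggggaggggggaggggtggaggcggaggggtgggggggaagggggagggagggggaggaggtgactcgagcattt
VIM, chr10:17227991-17228240, plus strand, GRCh38.p14: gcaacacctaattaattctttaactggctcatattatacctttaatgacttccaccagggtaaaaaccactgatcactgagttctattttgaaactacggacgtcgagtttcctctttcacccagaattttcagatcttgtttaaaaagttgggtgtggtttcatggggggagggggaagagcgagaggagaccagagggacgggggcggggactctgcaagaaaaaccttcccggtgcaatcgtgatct

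SNAI1 (ENSG00000124216, chr20:49982999-49988886, plus strand) encodes Snail, a zinc finger repressor of CDH1 that acts early in EMT. It was at 10.4, 9.11 and 10.9 CPM in NC, 26.7, 25.6 and 14.2 with shRNA1, 10.4, 10.5 and 10.6 with shRNA2, and 63.7, 65.3 and 10.9 with shRNA3. All of shRNA2 and library 3 of shRNA3 lay at the NC level, while libraries 1 and 2 of shRNA3 were 5.93 times library 3. SNAI1 was called only with shRNA3 (log2 fold change 2.20 ± 0.52, adjusted p = 0.00379), and without libraries 1 and 2 the value was 0.13 (adjusted p = 0.715). With shRNA1 the log2 fold change was 1.13 ± 0.50 (adjusted p = 0.0740), and this difference was called where those 2 libraries were left out of the shared spread (1.14, adjusted p = 0.000230). With shRNA2 it was 0.05 ± 0.50.

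SNAI2 (ENSG00000019549, chromosome 8) encodes Slug, the relative of Snail that basal epithelial cells also express. Its level was 15.8, 17.6 and 14.9 CPM in NC, 42.7, 47.2 and 46.4 with shRNA1, 13.5, 14.2 and 12.4 with shRNA2, and 28.9, 27.8 and 20.5 with shRNA3. The shRNA1 libraries were the highest and those of shRNA2 were all below NC. SNAI2 was 2.82-fold higher with shRNA1 (log2 fold change 1.50 ± 0.17, adjusted p = 2.11e-05) and 1.60-fold higher with shRNA3 (0.68 ± 0.17, adjusted p = 0.00473), whereas with shRNA2 it was at -0.27 ± 0.17 (adjusted p = 0.193). The shRNA3 call was lost without its libraries 1 and 2 (0.38, adjusted p = 0.0552) and with library totals as the only scaling (0.31, adjusted p = 0.0974). All 3 hairpin pairs differed in SNAI2: shRNA1 exceeded shRNA2 by 1.76 and shRNA3 by 0.82, and shRNA2 was below shRNA3 by a log2 difference of -0.94 (adjusted p = 0.000306, 0.00772 and 0.0249). The last of these was lost in 10 of 20 other settings: leaving out any 1 NC or shRNA2 library, shRNA3 library 1, library 2 or both (-0.63, adjusted p = 0.0668), and with only the compared libraries (adjusted p = 0.206).

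TWIST1 (ENSG00000122691, chr7:19020991-19117672, minus strand) encodes a basic helix-loop-helix factor of mesoderm that can induce CDH2. Its level was 17.0, 13.8 and 15.02 CPM in NC, 10.8, 10.8 and 12.3 with shRNA1, 16.1, 17.1 and 18.4 with shRNA2, and 29.3, 32.6 and 19.5 with shRNA3. The shRNA1 libraries were below NC, those of shRNA2 overlapped NC and those of shRNA3 were above it. TWIST1 was 1.78-fold higher with shRNA3 (log2 fold change 0.83 ± 0.20, adjusted p = 0.00484), and without libraries 1 and 2 of shRNA3 this was 0.38 (adjusted p = 0.0863). It was not called with shRNA1 (-0.43 ± 0.20, adjusted p = 0.0877) or shRNA2 (0.17 ± 0.20, adjusted p = 0.495). With shRNA1 it was called lower in 5 other settings, among them without libraries 1 and 2 of shRNA3 (-0.42, adjusted p = 0.0120) and with only the compared libraries (adjusted p = 0.0292). The hairpins shRNA1 and shRNA3 differed by -1.26 (adjusted p = 0.00402).

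ESRP1 (ENSG00000104413, chromosome 8) encodes an RNA-binding protein that sets epithelial splicing of genes such as FGFR2 and CD44, and is repressed by ZEB factors. It was at 92.8, 80.3 and 91.3 CPM in NC, 13.4, 15.6 and 18.5 with shRNA1, 33.7, 35.6 and 32.0 with shRNA2, and 39.5, 36.8 and 29.9 with shRNA3. The groups did not overlap with NC, and shRNA1 lay below the other hairpins in every library. ESRP1 was 5.56-fold lower with shRNA1 (log2 fold change -2.48 ± 0.17, adjusted p = 6.18e-07), 2.61-fold lower with shRNA2 (-1.38 ± 0.16, adjusted p = 2.78e-05) and 2.49-fold lower with shRNA3 (-1.32 ± 0.16, adjusted p = 4.11e-05). It was lower with shRNA1 than with shRNA2 (log2 difference -1.09, adjusted p = 0.00299) and shRNA3 (-1.16, adjusted p = 0.00259). The related gene ESRP2 had a mean of 34.0 ± 2.67 CPM (SD, n = 3) in NC, against 35.7 ± 3.45, 34.6 ± 3.49 and 26.8 ± 3.89 with the hairpins, and was not called with any.

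**Figure D3:**
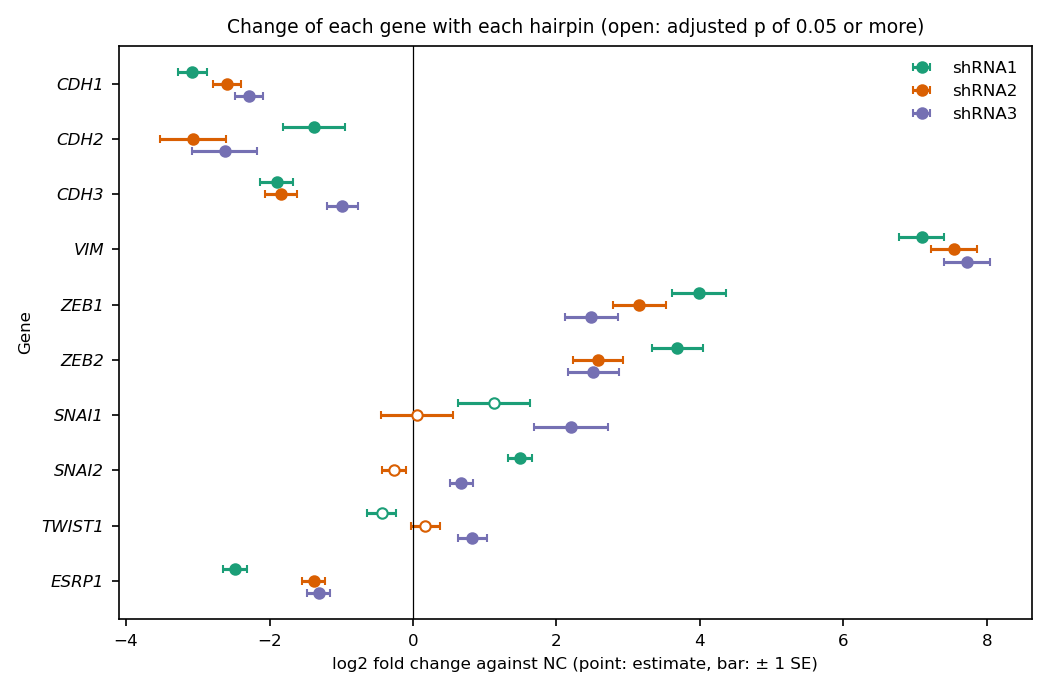
Log2 fold change of each gene against NC with each hairpin (points, with bars of 1 SE); open points have an adjusted p of 0.05 or more. VIM lies between 7.09 and 7.73, ZEB1 and ZEB2 between 2.49 and 3.98, and SNAI1, SNAI2 and TWIST1 differ between hairpins.

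Among pairs of hairpins, 4 of the 10 genes were called between shRNA1 and shRNA2, 3 higher and 1 lower with shRNA1, against 12.3% of all tested genes (5.78% higher, 6.53% lower). Between shRNA1 and shRNA3, 7 were called, 3 higher and 4 lower with shRNA1, against 30% of all genes (11.9% higher, 18.1% lower). Between shRNA2 and shRNA3, 3 were called, all lower with shRNA2, against 8.34% of all genes (1.91% higher, 6.43% lower). ZEB1, ZEB2 and SNAI2 were highest with shRNA1, and ESRP1 and CDH1 were lowest there, although the CDH1 difference from shRNA2 (-0.48) was not called (adjusted p = 0.116). These counts depend on how the spread is estimated. Where only the libraries of the 2 hairpins compared were fitted, edgeR called 8, 0 and 0 of the 10 genes (7 and 4 had an unadjusted p under 0.05 in the pairs with 0). DESeq2's Wald test on all libraries called 6, 9 and 4. Without libraries 1 and 2 of shRNA3 the counts were 8, 3 and 0, where the lone shRNA3 library is assumed to vary like the other groups.

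CDH3 and CDH1 are neighbours in the genome, 14.608 kb apart on chromosome 16 and read in the same direction. Within 500 kb on either side of the pair 24 genes were tested, the pair included. Of the 22 besides the pair, 3 were lower (13.6%) and 2 were higher (9.09%) with all 3 hairpins, against 19.7% and 16% of all genes. The lower genes were ZFP90 (log2 fold changes -3.53, -3.35 and -3.93), SMPD3 (-2.61, -1.59 and -1.66) and PLA2G15 (-1.32, -1.56 and -1.03). The higher genes were HAS3, a hyaluronan synthase (3.09, 2.95 and 3.49), and TANGO6 (1.51, 2.11 and 0.99). These 5 were named after their values were seen. These 5 genes moved in both directions, and the other tested neighbours were not called in the same direction with all 3 hairpins. A cause shared by the region was not tested.

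**Figure D4:**
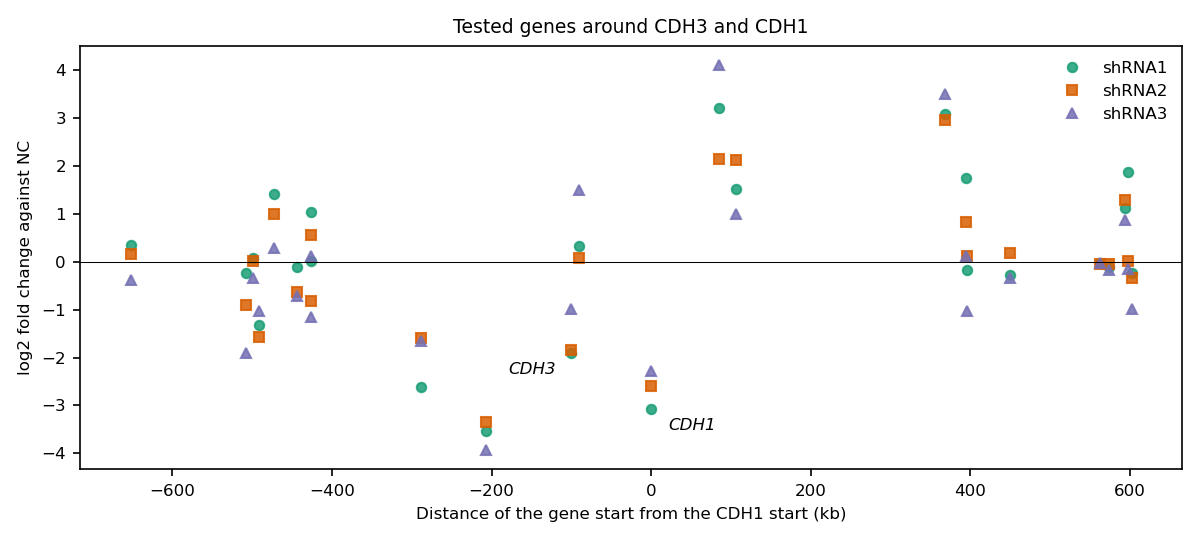
Log2 fold change against NC of the 24 tested genes around CDH3 and CDH1, by distance of the gene start from the CDH1 start in kb; symbols mark the hairpins. Genes above and below 0 occur on both sides of the pair.

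The genes whose profile over the 12 libraries was most like that of CDH1 among 10187 genes with a mean of at least 10 CPM were ALDH4A1, KCNS3 and GAB2, with root mean square differences of 0.139, 0.159 and 0.202 in centred log2(CPM + 1). ALDH4A1, a mitochondrial enzyme of proline breakdown, fell from 54.9 ± 4.46 CPM (SD, n = 3) in NC to 5.14 ± 0.58, 8.15 ± 0.46 and 9.60 ± 3.03 CPM with the hairpins. Those most like VIM were B4GALNT4, RPL29P4 and MGST1, with larger differences of 0.403, 0.528 and 0.537. MGST1, a microsomal glutathione transferase, rose from 0.117 ± 0.08 CPM in NC to 77.2 ± 15.04, 98.2 ± 5.42 and 81.8 ± 23.8 CPM with the hairpins. RPL29P4 is a pseudogene whose reads may be shared with its parent gene, so its values are uncertain.

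The other genes of junctions and EMT did not follow a single direction. Over 8 lists with 131 distinct genes, 109 were tested, and 23 rose and 31 fell with all 3 hairpins (all tested genes: 16% and 19.7%). The counts per list depend on libraries 1 and 2 of shRNA3, without which more genes of several lists fell with all 3 hairpins. Of the catenins and their partners, 11 of 13 genes were tested, 2 rose and 1 fell with all 3 hairpins, and the median log2 fold change was -0.35, -0.22 and 0.03 with shRNA1, shRNA2 and shRNA3. Over all tested genes that median was -0.02, -0.05 and -0.03. CTNNB1, the gene of beta-catenin, which links cadherins to actin and carries Wnt signals, rose from 213 ± 14.5 CPM (SD, n = 3) in NC to 491 ± 11.4, 444 ± 7.50 and 446 ± 59.6 CPM. NECTIN1 rose 4.52-, 6.84- and 7.65-fold, whereas its relative NECTIN2 fell 5.50-, 4.03- and 2.52-fold. JUP (plakoglobin) was called only with shRNA3 (3.08-fold, adjusted p = 0.00131), where libraries 1 and 2 held 2058 and 1916 CPM and library 3 held 685, against a mean of 731 with shRNA2 and 505 in NC.

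Of the other 19 cadherins, 9 were tested, and 5 fell and 2 rose with all 3 hairpins (all tested genes: 19.7% and 16%). The median was -2.16, -2.27 and -1.31, also with undetected genes set to the floor of 3 counts. CDH11, a cadherin of mesenchymal cells, was at 12.4 ± 2.64 CPM (SD, n = 3) in NC and at 0 counts in all 9 shRNA libraries, at least 83.1-, 73.1- and 63.3-fold lower against 3 counts in each library. CDH24 fell 5.94-, 4.84- and 2.48-fold. CDH5, VE-cadherin of endothelium, fell 8.90-, 6.83- and 12.3-fold from 17.3 ± 2.78 CPM. CDH13, which lacks a cytoplasmic tail, rose 3.54-, 3.93- and 5.14-fold. CDH16 had at most 1 count in NC and was at least 6.05-, 32.8- and 17.6-fold higher. CDH8 did not pass with any hairpin (group means 1.32 to 1.74 CPM).

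Of the 14 epithelial transcription and splicing regulators, all tested, 3 rose and 3 fell with all 3 hairpins (all tested genes: 16% and 19.7%). Their medians were 0.04, 0.09 and 0.05. EHF, an ETS factor of epithelia, fell 40.9-, 29.6- and 42.3-fold from 607 ± 45.9 CPM (SD, n = 3). GRHL2, a grainyhead factor that maintains CDH1 expression in epithelia, fell from 35.6 ± 1.10 CPM to group means between 0.0825 and 0.281 CPM. OVOL1 fell from 5.96 ± 0.90 to between 0.0984 and 0.775 CPM. In contrast GRHL3 rose 5.80-, 11.1- and 28.7-fold from 0.234 ± 0.11 CPM, KLF5 rose 3.99-, 4.09- and 4.72-fold, and RBM47, a splicing regulator, rose 1.31-, 2.45- and 2.07-fold.

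Among 31 epithelial junction and surface genes, all tested, 6 rose and 9 fell with all 3 hairpins (all tested genes: 16% and 19.7%). The median was -1.04, -0.50 and 0.21. SPINT1, a protease inhibitor of epithelial cell surfaces, fell 9.79-, 7.71- and 3.82-fold, and LSR, of tricellular junctions, fell 2.57-, 2.49- and 2.27-fold. The keratins of simple epithelia rose: KRT8 went up 2.69-, 3.33- and 2.81-fold and KRT18 1.88-, 1.88- and 2.09-fold. DSP, the gene of the desmosomal plaque protein desmoplakin, rose 2.80-, 3.39- and 2.32-fold. SPINT2 was called only with shRNA3 (1.88-fold, adjusted p = 0.0123), at 1869 and 1809 CPM in libraries 1 and 2 and 772 in library 3, against 790 in NC.

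Of 23 mesenchymal genes 16 were tested, and 8 fell and 1 rose with all 3 hairpins (all tested genes: 19.7% and 16%). Their medians were -1.14, -1.38 and -1.49. The 8 that fell moved opposite to VIM, and 7 did neither. SPARC, a matrix glycoprotein, fell 33.6-, 1513- and 533-fold from 725 ± 34.4 CPM (SD, n = 3). AXL, a receptor tyrosine kinase, fell 2.20-, 2.18- and 2.21-fold, and CALD1, an actin regulator, fell 2.20-, 3.78- and 4.90-fold. S100A4, a calcium-binding protein also called fibroblast-specific protein, was the gene that rose, 8.53-, 10.6- and 16.9-fold from 3.19 ± 0.45 CPM. COL5A1 was not called with any hairpin (group means 153 to 163 CPM). The 6 fibroblast markers checked summed to 56.7 to 59.6 CPM in NC, 15.5 to 21.1 with shRNA1, 44.2 to 48.2 with shRNA2 and 32.6 to 86.6 with shRNA3, most of it from COL1A1. DCN was at 0 in every NC and shRNA2 library, and COL1A2, LUM and PDGFRB were lower with all 3 hairpins, opposite to VIM. The 5 endothelial markers summed to 17.9 to 23.2 CPM in NC, most of it from CDH5, and 4.03 to 14.2 CPM across the shRNA groups. KDR was at 0 in all shRNA libraries. With shRNA3 the sum was 8.75 to 14.2 CPM, most of it from markers other than CDH5, so the markers did not all fall. The 5 leukocyte markers summed to 58.8 to 76.3 CPM in NC and 44.5 to 236 CPM across the shRNA groups, most of it from CD68, with PTPRC at 0 in NC and at most 9 counts elsewhere; their part in the results was not tested.

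The partial EMT genes of head and neck carcinoma (15, all tested) mark invasive cells that keep epithelial traits. Of these, 4 rose and 4 fell with all 3 hairpins (all tested genes: 16% and 19.7%), with medians of -0.49, -0.69 and 0.38. MMP1, a collagenase, rose 22.9-, 17.9- and 29.6-fold from 2.01 ± 0.77 CPM (SD, n = 3), and FSTL3 rose 2.85-, 1.45- and 1.68-fold. THBS1, thrombospondin, fell 8.48-, 45.6- and 25.8-fold, TNC, tenascin C, fell 8.92-, 6.36- and 11.2-fold, and P4HA2, a collagen prolyl hydroxylase, fell 2.14-, 1.62- and 1.57-fold. LAMB3 was lower with shRNA1 and shRNA2 only (adjusted p = 0.0356 and 0.00212) and at 2382 ± 1225 CPM in shRNA3 (3179, 2995 and 972 in libraries 1, 2 and 3).

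Of 15 other EMT transcription factors 12 were tested, and 6 rose and 1 fell with all 3 hairpins (all tested genes: 16% and 19.7%). Their medians were 0.88, 0.79 and 0.67. TCF3, the gene of the E-box factor E2A, rose 1.46-, 1.84- and 2.76-fold from 109 ± 7.37 CPM (SD, n = 3), FOXC1 rose 3.03-, 2.72- and 5.67-fold, and HMGA2 rose 4.90-, 2.18- and 1.71-fold. TWIST2, the close relative of TWIST1, was at 0 counts in all NC libraries and at 3.89 ± 0.49, 6.64 ± 0.60 and 5.35 ± 0.85 CPM with the hairpins, at least 25.9-, 44.1- and 35.5-fold higher against 3 counts in each library; it was named after its values were seen. SNAI3, the third Snail gene, fell 3.92-, 4.98- and 3.63-fold. SOX9 was lower with shRNA2 only (7.03-fold, adjusted p = 0.000309).

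**Figure D5:**
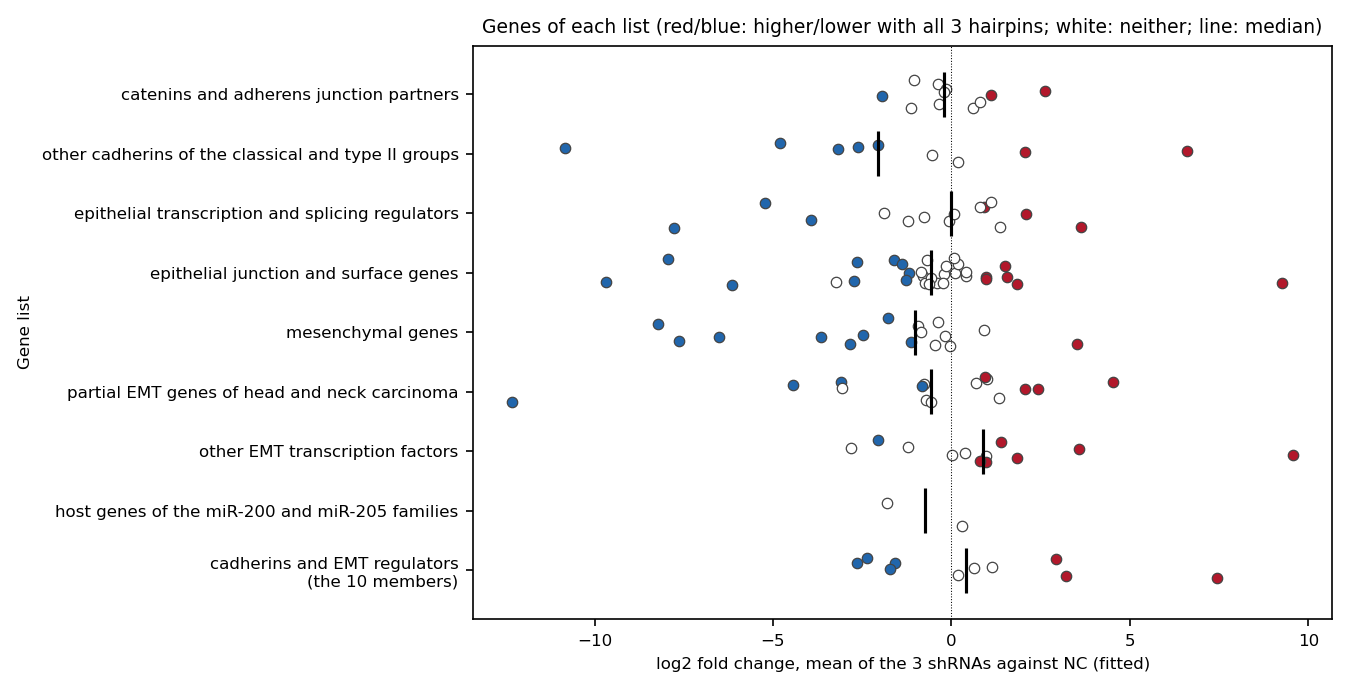
Fitted log2 fold change (mean of the 3 shRNAs against NC) of each tested gene in the 8 lists and of the 10 genes described here; red and blue points were higher or lower with all 3 hairpins, white points neither, and vertical lines mark list medians. Both colours occur in every list but that of the miRNA host genes, and 8 of the 16 tested mesenchymal genes are blue against 1 red.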

How the data were processed

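RNA-seq libraries of SCC-15 cells (NC, shRNA1, shRNA2 and shRNA3, 3 each) were grouped by sample title. The 10 genes, the lists and the tests were chosen with earlier results of these data known. The values are estimated counts of reads per gene in 1 table that the authors made from their reads and deposited without scaling to a common total. Of these values 13.8% are not whole numbers, and they were rounded. The NEBNext Ultra RNA kit was used, per the labels' protocols. HISAT2, HTSeq 0.11.2 and GRCh38 are named in the submitters' processing notes. HTSeq normally gives whole counts, so how the values that are not whole arose is unclear. The annotation, filters and use of strand are not given in the sources used here. Of 61044 IDs, 380 are not Ensembl IDs and 60463 matched a symbol. Columns not matched to a sample numbered 0.

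Genes were kept by filterByExpr (minimum count 10, minimum total 15) and tested two-sided with edgeR 4.0.16 (R 4.3.3), TMM scaling and a robust quasi-likelihood fit of the 4 groups over all 12 libraries (8 residual degrees of freedom, common biological coefficient of variation 0.289), with Benjamini-Hochberg adjustment over 17532 genes at 0.05. The model was run on simulated counts with the same spread for every gene, changes in some shRNA1 genes only and no outlying libraries. These data are less simple, so that run does not show how the model behaves on them. The SE of a log2 fold change is its size over the square root of F. The contrasts were each hairpin against NC, their mean against NC, and the hairpin pairs. The floor of 3 counts was used only for "at least" fold values and for medians with a floor. There, a group with at most 3 counts in every library was set to it, if the other group exceeded 3 counts. Other levels, fits and ratios were not floored. Floors cover counting error only. Ratios used a pseudocount of 1 count. Named list genes are, per list, the 3 rising and 3 falling genes of highest mean CPM among those called with all 3 hairpins, and the highest one not so called. For 2 of the genes this rule names, values are not reported here. Gene positions, transcript lengths and untranslated regions are from GENCODE 29 (GRCh38), and promoter and miRNA sequences from RefSeq (GRCh38.p14). Alternatives were DESeq2 1.42.0 (size factors, Wald test), library totals, other filters, fits of the compared libraries only, a replicate block, and leaving out libraries.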

Additional observations from a re-analysis of the deposited data

Results flagged for a closer look

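The hairpins differed from each other, at an adjusted p under 0.05 for the difference itself, in 14 of the 30 tests made over the 10 genes and 3 hairpin pairs. Of all tested genes, 12.3% were called between shRNA1 and shRNA2, 30% between shRNA1 and shRNA3 and 8.34% between shRNA2 and shRNA3. The 3 pairs share libraries, so the 30 tests are not independent. Values are log2 differences, the first hairpin minus the second. Between shRNA1 and shRNA2, CDH2 differed by 1.68, ZEB2 by 1.10, SNAI2 by 1.76 and ESRP1 by -1.09. Between shRNA1 and shRNA3, CDH1 differed by -0.79, CDH3 by -0.92, ZEB1 by 1.50, ZEB2 by 1.17, SNAI2 by 0.82, TWIST1 by -1.26 and ESRP1 by -1.16. Between shRNA2 and shRNA3, CDH3 differed by -0.85, SNAI1 by -2.15 and SNAI2 by -0.94. The calls were not equally stable over 20 alternative settings (a minimum log2 change left out). SNAI2 and ESRP1 between shRNA1 and shRNA2 were lost in 0, SNAI2, TWIST1 and ESRP1 between shRNA1 and shRNA3 in 1 each and ZEB1 in 2. CDH1 and ZEB2 between shRNA1 and shRNA3 were lost in 5 each, CDH3 in 6, CDH2 and ZEB2 between shRNA1 and shRNA2 in 8 and 11, and SNAI2, CDH3 and SNAI1 between shRNA2 and shRNA3 in 10, 15 and 15.

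Libraries 1 and 2 of shRNA3 carried SNAI1 at a mean of 64.5 CPM against 10.9 CPM in library 3, and TWIST1 at 30.9 against 19.5 CPM. Without those 2 libraries SNAI2 (adjusted p = 0.0021), TWIST1 (0.0171) and ESRP1 (0.00619) were still called between shRNA1 and shRNA3, and none of the 10 genes was called between shRNA2 and shRNA3 (1 had an unadjusted p under 0.05 in edgeR).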

How the results depend on the processing

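Against NC, 798 of 840 values of the 10 genes under the alternatives kept their direction and their side of the threshold. Some of these could not change. For the mean over the hairpins, the fit of the compared libraries only is the main fit again. The setting with a log2 change of at least 1 uses the main estimates, so no direction can turn there. CDH1, CDH2, CDH3, VIM, ZEB1, ZEB2 and ESRP1 kept their direction with every hairpin under all 21 settings, and only CDH2 with shRNA1 and CDH3 with shRNA3 lost a call. The mean over the hairpins called 9 of the 10 genes, all but TWIST1; SNAI1 was the weakest call (log2 1.13, adjusted p = 0.0420) and was lost in 14 settings. The cause of these changes was not tested. With library totals as the only scaling the median of all genes shifted by -0.13 with shRNA2, -0.32 with shRNA3 and -0.18 for the mean, and higher calls with shRNA3 went from 48.9% to 35.1%. Directions turned for values that were not called: SNAI1 with shRNA2 (-0.0824 with library totals, -0.0352 with a mean of at least 50 counts, and -0.015, without NC replicate 2, to 0.1054 leaving out 1 library at a time), TWIST1 for the mean (-0.0084 with library totals), and between shRNA2 and shRNA3 VIM (0.0589) and ESRP1 (0.15) with library totals. Without libraries 1 and 2 of shRNA3, SNAI1 turned to 1.01 between shRNA1 and shRNA3, and between shRNA2 and shRNA3 CDH1 turned to 0.26, VIM to 0.33, ZEB2 to -0.17 and ESRP1 to 0.16; ZEB2 also turned without shRNA2 replicate 2 (-0.157) or shRNA3 replicate 1 (-0.222), with a range of -0.222 to 0.2105 leaving out 1 library at a time.

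Between shRNA1 and shRNA2, 2158 genes were called, against 1420 with no filter, 3464 by DESeq2, 1031 with a log2 change of at least 1, 6251 (8 of the 10 genes) with only the compared libraries and 7031 (8) without libraries 1 and 2 of shRNA3. Between shRNA1 and shRNA3, 5258 were called, against 2971 (4) with a log2 change of at least 1, 0 (0) with only the compared libraries, where 4295 had an unadjusted p under 0.05 in edgeR, and 1547 (3) without those libraries. Between shRNA2 and shRNA3, 1462 were called, against 596 (1) with library totals, 911 with no filter, 3793 by DESeq2, 974 (1) with a log2 change of at least 1, 0 (0) with only the compared libraries (3186 unadjusted) and 244 (0) without those libraries. For the mean against NC, 6990 of 10525 had a log2 change of at least 1. Leaving out 1 library at a time gave 7 to 10 of the 10 genes with shRNA1, 7 to 8 with shRNA2, 10 with shRNA3 and 8 to 10 for the mean. For the hairpin pairs it gave 2 to 9, 4 to 10 and 0 to 6 of the 10 genes, and 559 to 7233, 1788 to 11573 and 0 to 10800 genes in all; the highest counts were without shRNA3 replicate 3. Against NC, 8677 to 13341, 7960 to 12798, 8314 to 13330 and, for the mean, 9012 to 13529 genes were called. Genes of the 8 lists called with all 3 hairpins numbered 48 to 63 (54 with all libraries). Of the catenins and partners 1 fell with all 3 hairpins in the main fit. This was 4 with library totals as the only scaling and 2 without shRNA3 replicate 3. Without libraries 1 and 2 of shRNA3, more genes fell among catenins and partners, in both epithelial lists and among partial EMT genes. More fell among the other EMT factors and miRNA host genes too, and more rose among the epithelial regulators.

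With 1 shRNA3 library left, the log2 ratios were -3.43 (CDH1 to VIM), -1.27 (CDH1 to CDH3), 2.85 (CDH1 to CDH2) and -2.80 (ZEB1 to ESRP1). Leaving out 1 library at a time, mean CDH1 to VIM stayed between 6.59 and 6.62 in NC and between -3.69 and -3.19 with the hairpins. Mean CDH1 to CDH2 stayed between 1.79 and 2.74 with shRNA1 and between 3.64 and 4.59 with shRNA3.

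Replicate numbers did not pair the libraries: deviations of same-numbered libraries correlated at -0.0107 on average over 18 pairs, against 0.00443 over 36 others. With the replicate number as a block, 378 genes and 1 of the 10 were called between shRNA2 and shRNA3. All 10 genes passed the filter, so the test planned for genes under it had nothing to run on. ZEB1 and ZEB2 rest on 8 to 14 counts per NC library, which limits the precision of their fold changes.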
